A study of Mus musculus with 2 samples.

Results

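The miR-17/miR-92 cluster, its paralogs miR-106b-25 and miR-106a-363, and miR-92b were described here in exosomes of mouse colorectal cancer cells. The 10 mature miRNAs were taken by name from the 1915 distinct mature miRNAs listed for each library, and all 10 were found, each with a read in at least 1 library. By their seed, bases 2 to 8 of the mature strand, they fell into 4 families, namely miR-17, miR-18, miR-19 and miR-92, the last with miR-25, miR-92a, miR-92b and miR-363. Small RNA had been sequenced from vesicles secreted by parental CT26 cells (parental exosomes) and by spheres expanded from the same line (SDCSC exosomes), with 1 library for each. CT26 is an established Balb/C colon carcinoma line. Parental cells were grown in complete DMEM with fetal bovine serum, and the serum was depleted of exosomes before the collection. The spheres, called sphere-derived cancer stem cells by the study, were expanded for 2 weeks without serum, in DMEM/F12 with N2 supplements, 10 ng/ml EGF and 10 ng/ml bFGF. A sphere culture is an enriched and not a sorted population, and the medium changed together with the cell state, so the 2 cannot be told apart here.

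MicroRNAs guide Argonaute proteins to target mRNAs mainly through their seed, so miRNAs of 1 seed family share many predicted targets even when they come from different genes. The miR-17/miR-92 transcript is a polycistron activated by MYC and E2F factors and known as an oncogenic cluster, with BIM and CDKN1A among its well studied targets. Its paralog miR-106b-25 is embedded in Mcm7, a replication gene, and miR-106a-363 lies on the X chromosome. miR-92b is a separate gene whose mature strand carries the seed of miR-92a and miR-25.

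The value of 1 read was 27.31 RPM, the deposited unit of reads scaled to a fixed total of miRNA reads, in the parental and 217.77 RPM in the SDCSC library. This gave 32162 and 3964 miRNA reads when each miRNA was given its highest entry. The parental library thus held 8.11 times as many miRNA reads. Depth means miRNA reads here and below, and not all sequenced reads. A count of 0 allows a share of up to 3 reads, which is 0.00933% in parental and 0.0757% in SDCSC exosomes. All intervals are at 95% and, like these limits, cover counting error only. No difference below has a replicate check, and each p sets 1 library against another, reads against reads, without testing the conditions. The libraries also differed in miRNAs taken here as markers of other cells, whose source was not tested. A list of 9 blood-cell miRNAs (among them miR-451a, miR-486a-5p, miR-142a-5p and miR-223-3p) held 2042 parental reads, with a read in 9 of 9, and 1 SDCSC read, in miR-142a-5p. Of the parental reads 856 stood under miR-486a-5p and 853 under miR-486b-5p, which may be the same reads listed under both names. The parental total of the list thus rests largely on miR-486, followed by miR-142a-5p with 213 reads and miR-451a with 88. Of the list, 4 were called lower and 0 higher in SDCSC exosomes. Of 5 epithelial miRNAs of the miR-200 family, 0 had a parental read, and miR-200b-3p and miR-429-3p had 1 SDCSC read each. Of 3 intestinal miRNAs, 3 had parental reads, miR-192-5p with 48, and 0 had SDCSC reads. In exosomes of this colon carcinoma line the epithelial list was thus at or near 0 in both libraries. The intestinal list was at 0 in SDCSC exosomes, where 6.78 reads would have matched. Serum was in the parental medium alone, so serum, cell state and the other changes of medium cannot be told apart as they bear on these lists. The part of such RNA in the results below was not tested. Fewer vesicles from a kind of cell and less of a miRNA in each vesicle cannot be told apart in such bulk RNA.

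The mature strands are shown first because the comparisons turn on which miRNA of a shared seed was read. All 10 were matched in the RefSeq table of GRCm38.p6 and are written 5′ to 3′ with the seed in capitals. The miR-92 family carries the seed AUUGCAC.
mmu-miR-92a-3p: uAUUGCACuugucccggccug
mmu-miR-92b-3p: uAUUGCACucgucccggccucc
mmu-miR-25-3p: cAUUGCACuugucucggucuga
mmu-miR-363-3p: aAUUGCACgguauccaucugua
The miR-17 family carries AAAGUGC.
mmu-miR-17-5p: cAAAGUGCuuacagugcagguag
mmu-miR-20a-5p: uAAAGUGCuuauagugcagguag
mmu-miR-93-5p: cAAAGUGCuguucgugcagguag
mmu-miR-106b-5p: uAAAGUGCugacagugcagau
The miR-18 and miR-19 families are each represented by 1 miRNA.
mmu-miR-18a-5p: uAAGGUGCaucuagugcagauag
mmu-miR-19b-3p: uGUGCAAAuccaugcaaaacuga

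Positions are counted from 1 at the 5′ end, and the base of the miRNA named first is written first. From miR-92a-3p to miR-92b-3p the strands differ by U10C and G21C over 21 bases. From miR-92a-3p to miR-25-3p they differ by U1C, C14U and C18U, and from miR-17-5p to miR-20a-5p by C1U and C12U. Reads were at least 18 nucleotides long, and over the first 18 bases miR-92a-3p and miR-92b-3p differ at 1 position. Whether mismatches were allowed when reads were assigned is not given in the sources used here, so the split of reads between such close relatives is uncertain. The mature strands are 21 to 23 bases long, and levels are therefore compared as shares of reads with no length correction.

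The 6 hairpins of miR-17/miR-92 lie at chr14:115043671-115044506 of GRCm38 on the plus strand, within an exon of the noncoding host gene Mir17hg. The 3 hairpins of miR-106b-25 lie at chr5:138165321-138165818 on the minus strand, in introns of Mcm7, and 2 of them also overlap an exon of another Mcm7 transcript. The 6 hairpins of miR-106a-363 lie at chrX:52741693-52742567 on the minus strand, where the annotated gene Kis2 overlaps 1 of them. The single hairpin of miR-92b, at chr3:89227116-89227198 on the minus strand, overlaps no other annotated gene and lies 28 bases from Mtx1, the nearest protein-coding gene. Both miR-92a-3p and miR-19b-3p are made from a hairpin in miR-17/miR-92 and another in miR-106a-363.

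Together the 10 miRNAs took 2171 parental reads or 6.75% of miRNA reads (Wilson interval 6.48 to 7.03%), and 421 SDCSC reads or 10.6% (9.70 to 11.6%). The group's share was thus 1.57-fold larger in the SDCSC library, which is 0.65 on the log2 scale (exact interval 0.50 to 0.81). Counted by highest entries, this ratio rested on miR-92b-3p, without which it was 0.17 (-0.01 to 0.34). With summed entries the ratio was 0.83 (0.69 to 0.96), and miR-92a-3p by itself was at 0.70. Leaving out miR-92b-3p was not rerun with summed entries. Most reads belonged to miR-92a-3p in either library, 80.3% of the group's parental and 68.2% of its SDCSC reads. The second place passed from miR-25-3p, with 9.17% of the parental group, to miR-92b-3p, with 29.7% of the SDCSC group. Without miR-92a-3p and miR-92b-3p, the other 8 miRNAs held 397 parental and 9 SDCSC reads, where 48.9 would have matched the parental share.

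**Figure D1:**
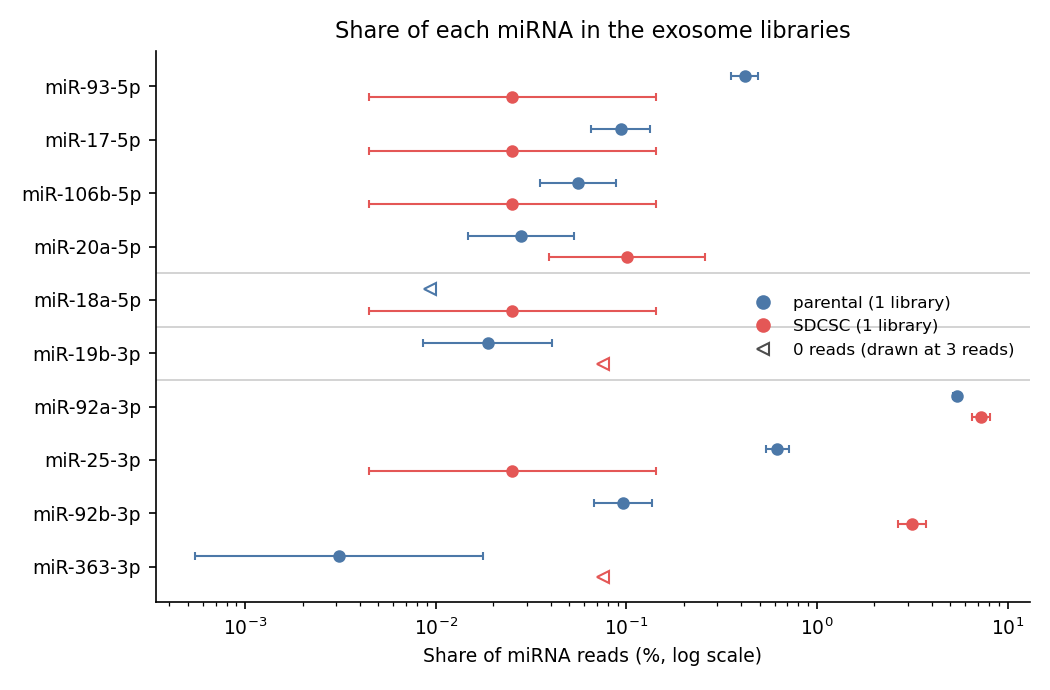
Share of miRNA reads (%, log scale) of the 10 miRNAs in parental (blue) and SDCSC (red) exosomes, 1 library each, ordered by seed family, with 95% Wilson intervals. Open triangles mark 0 reads and are drawn at the share of 3 reads. The intervals of miR-92b-3p, miR-25-3p, miR-93-5p and miR-92a-3p do not overlap between the libraries, and those of miR-17-5p, miR-106b-5p and miR-20a-5p do.

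Where a miRNA had 0 reads in 1 library, 0.5 reads were added to both of its counts for the ratio alone. A miRNA was called when its share differed by at least 1.5-fold and its adjusted p was under 0.05 (Fisher's exact test, two-sided, with p-values adjusted after Benjamini-Hochberg across 336 miRNAs that had a read). By this rule 1 of the 10 was called higher in SDCSC exosomes, mmu-miR-92b-3p, and 2 were called lower, mmu-miR-25-3p and mmu-miR-93-5p. Over all 336 miRNAs, 4.76% were called higher and 9.23% lower. Among the 136 that reached 10 reads when the libraries were added, 10.3% were called higher and 22.8% lower, and of the 7 group members at that depth 1 was higher and 2 lower. The counts lie near these shares, so they say nothing particular about the group. By share alone 4 of the 10 were higher and 6 lower, against 67 and 269 of all 336. Only 116 of the 336 were read in both libraries, and a miRNA read in the deeper library alone counts as lower.

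**Figure D2:**
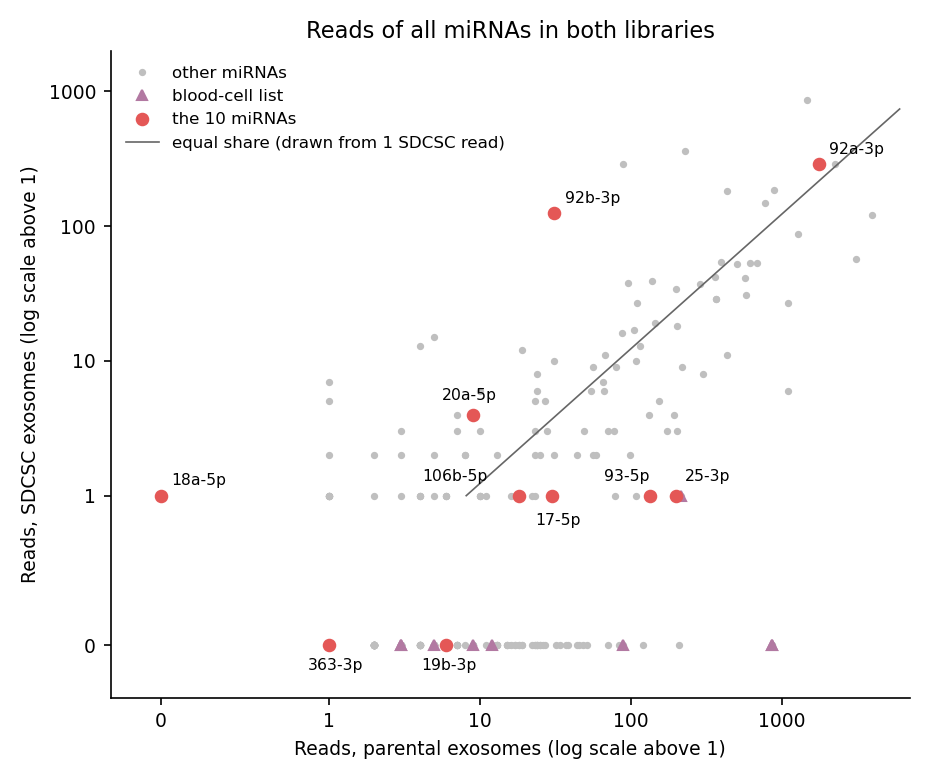
Reads of the 336 miRNAs with any read in parental (x axis) and SDCSC (y axis) exosomes, both on a log scale above 1 read, with the 10 miRNAs in red, the blood-cell list as triangles, the other miRNAs in grey and a line at equal share of the libraries. miR-92b-3p, at 31 and 125 reads, lies far above the line, miR-92a-3p close to it, and miR-25-3p and miR-93-5p, at 1 SDCSC read each, far below it.

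In the miR-92 family, miR-92b-3p was far higher and miR-25-3p far lower in SDCSC exosomes, beside a miR-92a-3p that was abundant in both. mmu-miR-92a-3p, the last miRNA of its cluster and a regulator of integrin and endothelial genes, had 1743 parental and 287 SDCSC reads. It ranked number 4 of all miRNAs in parental and number 5 in SDCSC exosomes. Its share was 5.42% (5.18 to 5.67%) and 7.24% (6.47 to 8.09%), so the intervals did not overlap. The 1.34-fold difference passed the test (log2 ratio 0.42, interval 0.23 to 0.60, adjusted p = 6.1e-05 by Fisher's exact test) but not the 1.5-fold limit. It passed that limit when the entries of each miRNA were summed (log2 ratio 0.70) or when the most abundant miRNA was left out of the totals (0.59).

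mmu-miR-92b-3p, known from neural progenitors and from several tumours, had 31 parental reads and 125 SDCSC reads. The parental share of 0.0964% would have given 3.82 reads at the SDCSC depth. Its share was 3.15% (2.65 to 3.74%) in SDCSC exosomes, which is 32.7-fold higher. The log2 ratio was 5.03 (interval 4.45 to 5.65, adjusted p = 1.9e-88 by Fisher's exact test), and its rank among all miRNAs went from 76 to 9. Relative to miR-92a-3p, with which it shares its seed, it had 0.0178 reads per read in parental and 0.436 in SDCSC exosomes, which is an odds ratio of 24.4 (exact interval 16.0 to 38.2). This ratio is taken within each library and does not depend on how the libraries are scaled. It does depend on counting miR-92a-3p by its highest entry, and it was not rerun with summed entries.

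mmu-miR-25-3p, which targets the BCL2 relative BIM among other genes, went the other way, with 199 parental reads and 1 SDCSC read. At its parental share of 0.619% it would have had 24.5 SDCSC reads. The log2 ratio was -4.62 (interval -9.93 to -2.12, adjusted p = 7.23e-08 by Fisher's exact test), and it ranged from -4.71 to -3.62 over the alternatives. Against miR-92a-3p, miR-25-3p fell from 0.114 to 0.00348 reads per read, an odds ratio of 0.0305 (7.66e-04 to 0.174). As the SDCSC value is 1 read, the size of the fall is known only within this wide interval. The blood-cell list above was lower in the same library, and whether the miR-25-3p reads share its source was not tested. With that list left out of the totals the log2 ratio of miR-25-3p was -4.71. That step shifts every miRNA by the same -0.09 and cannot show where the reads came from.

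mmu-miR-363-3p, the X-linked relative, had 1 parental read and 0 SDCSC reads, both under the 3 reads that the depth can show. Shares of the family were taken with the highest entry of miR-92a-3p and were not rerun with summed entries. By these shares, miR-92a-3p made up 88.3% of 1974 parental reads (86.8 to 89.6%) and 69.5% of 413 SDCSC reads (64.9 to 73.7%). miR-92b-3p made up 1.57% (1.11 to 2.22%) and 30.3%, which is 31 and then 125 reads. miR-25-3p made up 10.1% (8.83 to 11.5%) and 0.242% (0.0428 to 1.36%). The family as a whole took 6.14% of parental and 10.4% of SDCSC miRNA reads, a log2 ratio of 0.76 (0.61 to 0.92). Without miR-92b-3p the ratio was 0.27 (0.08 to 0.45). The seed AUUGCAC was thus read 1.70-fold more often per miRNA read in SDCSC exosomes, with 30.3% of it on the miR-92b strand. The other miRNAs of this seed, miR-32-5p and miR-367-3p, had 0 reads in either library.

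**Figure D3:**
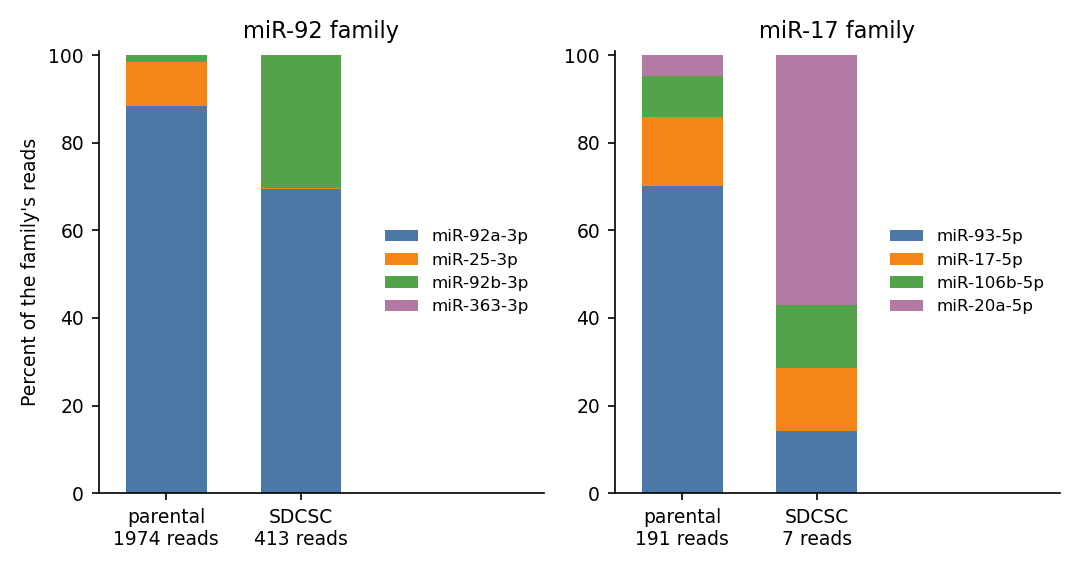
Percent of the reads of the miR-92 family (left) and of the miR-17 family (right) taken by each miRNA in parental and SDCSC exosomes, with the family's reads under each bar. On the left miR-92b-3p grows from 1.57% to 30.3% while miR-25-3p shrinks from 10.1% to 0.242%. On the right the SDCSC bar rests on 7 reads.

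The entries of miR-92a-3p at its precursors also differed between the libraries. The mature strand is the same at both, and the hairpins differ in the bases that follow it, shown here in capitals.
Mir92-1: uauugcacuugucccggccugUUGA
Mir92-2: uauugcacuugucccggccugAGGA
The entry listed next to miR-92a-1-5p held 1743 parental and 287 SDCSC reads, and the one listed next to miR-92a-2-5p held 312 and 133. For each 100 reads of the larger entry the smaller had 17.9 in parental and 46.3 in SDCSC exosomes, an odds ratio of 2.59 (2.02 to 3.30). Entries at several precursors can count the same read more than once, so this odds ratio and its interval take as separate what may be shared reads. The 5 other miRNAs that had unequal entries and at least 20 reads in each library (let-7a-5p, let-7c-5p, let-7f-5p, miR-125b-5p and miR-199a-3p) had from 85.4 to 99.7 reads in the lower entry per 100 in the higher. Both entries of miR-19b-3p held 6 parental reads and 0 SDCSC reads. How miRNA reads were assigned to precursors is not given in the sources used here, and the cause of the unequal entries was not tested.

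The miR-17 family, which represses the cell cycle inhibitor CDKN1A, had far fewer reads than the miR-92 family. It held 191 parental reads or 0.594% (0.516 to 0.684%), and 7 SDCSC reads or 0.177% (0.0856 to 0.364%). The pooled log2 ratio was -1.75 (-3.08 to -0.68). mmu-miR-93-5p, the middle miRNA of miR-106b-25, held most of the parental reads, with 134 parental reads and 1 SDCSC read where 16.5 would have matched. Its log2 ratio was -4.05 (interval -9.36 to -1.54, adjusted p = 5.91e-05 by Fisher's exact test). It was -4.14 with the blood-cell list left out of the totals, a change of scale that leaves the source of these reads untested.

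The other 3 did not pass the test. mmu-miR-17-5p, which gives the family its name, had 30 parental reads and 1 SDCSC read, where 3.70 would have matched, a log2 ratio of -1.89 (-7.24 to 0.70). mmu-miR-106b-5p had 18 parental reads and 1 SDCSC read, with 2.22 to match, a log2 ratio of -1.15 (-6.53 to 1.51). mmu-miR-20a-5p, which differs from miR-17-5p by 2 bases, had 9 parental and 4 SDCSC reads, where 1.11 would have matched, a log2 ratio of 1.85 (-0.30 to 3.69). Its adjusted p was 0.241 by Fisher's exact test, from 0.185 to 0.277 over the alternatives. Among the SDCSC reads of the family, miR-20a-5p took 57.1%, which is 4 of 7 reads, against 4.71% (2.50 to 8.71%) of the 191 parental reads. Relative to miR-93-5p the odds ratio of miR-20a-5p was 55.1 (4.85 to 2950), and relative to its cluster neighbour miR-17-5p it was 12.4 (1.06 to 678). Both rest on 4 reads of miR-20a-5p and 1 of the other in SDCSC exosomes.

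mmu-miR-18a-5p had 0 parental reads and 1 SDCSC read. mmu-miR-19b-3p, the main oncogenic component of the cluster in mouse lymphoma models, had 6 parental reads (0.0187%) and 0 SDCSC reads. A count of 0 in SDCSC exosomes allows more than this parental share, so neither a difference nor its absence was detectable at this depth.

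**Figure D4:**
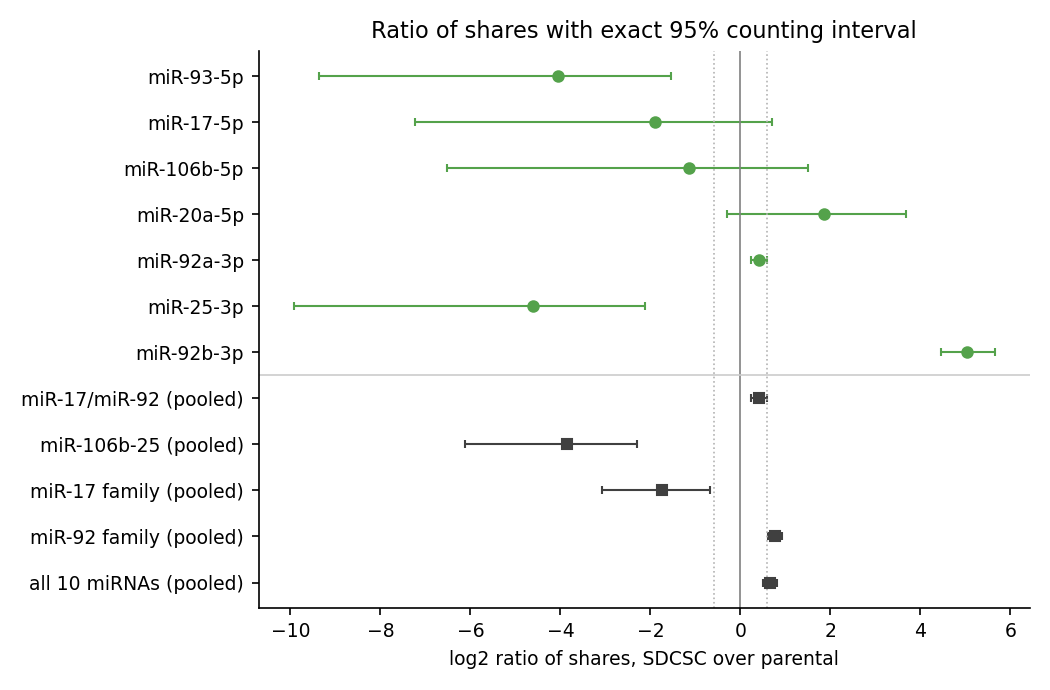
Log2 ratio of shares, SDCSC over parental exosomes, with exact 95% intervals for the 7 miRNAs with a read in each library (green) and for pooled reads (grey squares). Dotted lines mark 1.5-fold. The intervals of miR-92b-3p (4.45 to 5.65) and of miR-25-3p (-9.93 to -2.12) lie on opposite sides of 0.

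In parental exosomes the order of levels was miR-92a-3p, miR-25-3p, miR-93-5p and then miR-92b-3p, and the Wilson intervals of neighbours down to miR-92b-3p did not overlap. Below it, from miR-92b-3p (31 reads) and miR-17-5p (30 reads) through miR-106b-5p, miR-20a-5p, miR-19b-3p and miR-363-3p to miR-18a-5p, each neighbouring pair overlapped. In SDCSC exosomes the order was miR-92a-3p, miR-92b-3p and miR-20a-5p with non-overlapping intervals. From miR-20a-5p, at 4 reads, to the others, at 0 or 1 read, neighbours overlapped.

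By locus, miR-106b-25 was lower in SDCSC exosomes, and the reads counted for miR-17/miR-92 were nearly all miR-92a-3p. The miR-106b-25 cluster held 351 parental reads or 1.09% (0.984 to 1.21%), and 3 SDCSC reads, 1 for each miRNA, or 0.0757% (0.0257 to 0.222%). Its log2 ratio was -3.85 (-6.13 to -2.29), where 43.3 SDCSC reads would have matched. The miR-17/miR-92 cluster held 1788 parental and 293 SDCSC reads, a log2 ratio of 0.41 (0.23 to 0.59), with miR-92a-3p and miR-19b-3p counted here although their other hairpins lie in miR-106a-363. Of these, miR-92a-3p made up 97.5% (96.6 to 98.1%) and 98.0% (95.6 to 99.1%). The remaining 4 members of that cluster held 45 and 6 reads, a log2 ratio of 0.11 (-1.41 to 1.35), so a difference in their pooled share was not detectable at this depth. The reads were unevenly spread along each transcript. In miR-106b-25 the parental reads were higher at each following hairpin, 18 for miR-106b-5p, 134 for miR-93-5p at 208 bases downstream, and 199 for miR-25-3p at 414 bases. In miR-17/miR-92 the hairpin of miR-92a-3p is the last, 756 bases from the first, and the 5 miRNAs before it had from 0 to 30 parental reads. In miR-106a-363, miR-106a-5p, miR-18b-5p and miR-20b-5p had 0 reads in either library, so of the miRNAs made there alone miR-363-3p was read, once, in parental exosomes. Ligation and amplification favour some small RNA sequences over others, and their part in these levels was not tested.

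**Figure D5:**
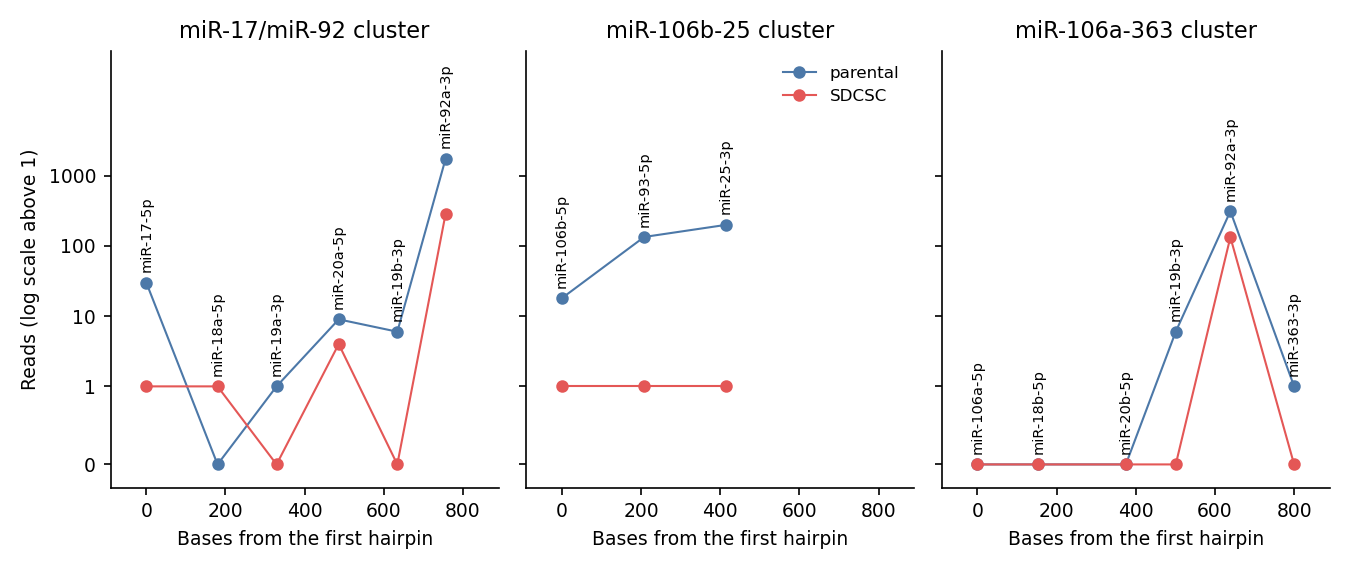
Reads of 1 mature strand of each hairpin, the one named in the plot (log scale above 1), against the distance in bases from the first hairpin of its cluster, in the direction of transcription, for parental (blue) and SDCSC (red) exosomes. The miR-92a-3p entry listed beside miR-92a-1-5p is drawn in miR-17/miR-92 and the one beside miR-92a-2-5p in miR-106a-363. miR-92a-3p stands above its neighbours in both libraries. The 3 miRNAs of miR-106b-25 lie at 18, 134 and 199 reads in the parental library and at 1 each in the SDCSC library. Of these, miR-93-5p and miR-25-3p were called lower and miR-106b-5p was not. The parental library holds 8.11 times as many miRNA reads.

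The opposite arms and the other mature products of these hairpins were mostly unread. Of 20 such products, 7 had a parental read, 1 had an SDCSC read, and 0 were called in either direction. The highest was miR-106b-3p, with 32 parental reads and 0 SDCSC reads (adjusted p = 0.238 by Fisher's exact test). In parental exosomes it exceeded its partner miR-106b-5p, usually taken as the guide strand, making up 64.0% (50.1 to 75.9%) of the reads of that hairpin. At the other hairpins of the cluster the usual guide prevailed. miR-93-3p had 4 parental reads, 2.90% of its hairpin (1.13 to 7.22%), and 1 SDCSC read, and miR-25-5p had 9 parental reads, 4.33% of its hairpin (2.29 to 8.02%), and 0 SDCSC reads. From miR-17/miR-92, miR-92a-1-5p had 13 parental reads against 1743 of miR-92a-3p, miR-17-3p had 3, and miR-18a-3p and miR-19a-3p had 1 each, with 0 SDCSC reads for all 4. miR-92b-5p had 0 reads in either library, beside 31 and 125 reads of miR-92b-3p, and 0 of 125 SDCSC reads of the hairpin allows up to 2.98% on the 5p arm by the Wilson interval.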

How the data were processed

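Small RNA of exosomes was sequenced from parental CT26 cells and SDCSCs, 1 library each. The authors took 18 to 40 nucleotide fragments, clipped adapters with Trimmomatic, discarded reads under 18 nucleotides and deposited an RPM value for each mature miRNA entry (mm10 per the submitters' processing notes). To explore the RNA content of the exosomes the study names ncPRO-seq, with small noncoding RNA levels normalized for reads shared between features. Whether this step was applied to the deposited miRNA values is not stated. The counter of these miRNA tables and the miRBase release are not given in the sources used here.

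Each RPM value was divided by the smallest value above 0, and 100.0% of values above 0 came out whole, within 0.02 reads plus 0.03% of the count. A miRNA listed at several precursors took its highest entry. Reads were compared as shares of the miRNA total by Fisher's exact test (two-sided), and p-values of 336 miRNAs were adjusted after Benjamini-Hochberg. A log-scale test would need replicates. Alternative scalings used an exact binomial test, and edgeR gave TMM factors only. Ratios have exact conditional intervals and shares Wilson intervals at 95%. Alternatives were other scalings, summed entries, 10 reads as a minimum, 1 read added to each library, a 2-fold limit and pools without a miRNA. The exact binomial test, the calling rule and the ratio interval were tried on simulated data. Fisher's exact test was not.

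All 10 members were named, with other products of their hairpins that had a read and marker miRNAs of 10 or more reads. Named outside this rule, after their values were seen, were miR-200b-3p, miR-429-3p, the 5 miRNAs with unequal entries and the products without reads. The members and lists were chosen with earlier results of these data known. Loci are from GENCODE M21 (GRCm38) and sequences from RefSeq. Versions were Python 3.11.15, scipy 1.17.1, statsmodels 0.14.6, R 4.3.3 and edgeR 4.0.16.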

Additional observations from a re-analysis of the deposited data

How the results depend on the processing

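No paired analysis was possible because the design holds 1 library per condition. The alternatives moved all log2 ratios by -0.06 (median of ratios and TMM), -0.03 (deposited RPM) and 0.17 (totals without the most abundant miRNA), and, chosen after seeing the data, by -0.09 without the blood-cell list. The test was rerun under another scaling or counting of entries in 42 comparisons of the 7 miRNAs with a read in each library. All 42 kept their direction and side of the adjusted p threshold, and the count of lower members stayed at 2. Each scaling adds the same small shift to every ratio of the same 2 libraries. Large ratios could hardly have changed side, so the 42 add little to the main result. With summed entries, miR-92a-3p passed 1.5-fold, which made 2 higher members, and the pooled log2 ratios were 0.69 for miR-17/miR-92, 0.93 for the miR-92 family and 0.83 for all members. Without the most abundant miRNA there were also 2 higher members, and these ratios were 0.93 for the family and 0.82 for all members. Over all members, counted by highest entries, the ratio was 1.34 without miR-92a-3p and 0.17 without miR-92b-3p. The other 34 pooled values, some of which added only miRNAs without reads, stayed within the main counting intervals. The 3964 miRNA reads of the SDCSC library limit every miRNA at 0 to 4 reads there.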
